A study of Homo sapiens with 20 samples.

Results

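HIF1A binding after 24 h in hypoxia at 1% oxygen was compared between A549 and H460, a pair of established human lung carcinoma lines, by ChIP-seq, the sequencing of DNA that is pulled down together with a protein. The members are the peaks of the A549 hypoxia list, 5408 in number, and of the H460 hypoxia list, 3877 in number, together 9285 of the 26484 peaks in the 8 lists of the series. Peaks of the 2 lists were matched wherever they overlapped by at least 1 bp, ranked within their own list by normalized tag count, and otherwise treated as called in 1 line. The whole series holds 20 samples, 16 of them ChIP libraries and 4 input libraries. They come from these lung lines and from the colon carcinoma lines HCT116 and RKO, each in normoxia and in hypoxia.

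A549 is a lung adenocarcinoma line and was grown in DMEM, H460 is a large cell lung carcinoma line and was grown in RPMI, and neither carried an engineered allele. Each line was derived from 1 tumour, so a difference between them is a difference between 2 lines and not between tumour types. Both groups had 2 ChIP libraries, 1 input library of the line, the same antibody and 5 min of crosslinking, but A549 chromatin was sonicated for 30 cycles and H460 chromatin for 20. The labels of the A549 and RKO input samples conflict with each other (title against description), and per the header of the A549 list the input used was named for A549. The replicates had been merged before peaks were called, so neither list has a replicate error, no test of the difference between the lines was possible, and intervals below cover counting error only. The merged libraries held 46.6 M tags in A549 and 49.5 M tags in H460, of which 0.402% and 0.423% lay in peaks. The normalized tag count, in tags per 10 M tags, ran from 2.36 to 208.5 with a median of 3.87 in A549, and from 2.63 to 179.3 with a median of 6.47 in H460. The weakest peaks held 11 and 13 tags. Peaks were called at a fold over input of 13 in A549 and 14 in H460, and were 141 bp and 147 bp wide.

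HIF1A is the oxygen-labile subunit of hypoxia-inducible factor 1. When oxygen falls it is no longer hydroxylated and degraded, pairs with ARNT and binds the hypoxia response element, whose core is RCGTG with R for A or G, mostly at chromatin that is already open. Its best known targets carry glucose through glycolysis to lactate, hold pyruvate out of the mitochondria, and act on acid balance, angiogenesis and collagen.

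The sequences below are examples picked among strong shared peaks and strong peaks called in 1 line, and each holds the core. The strongest and the next strongest A549-only peak held 1 and 0 copies of the core and are not shown. The examples are given 5′ to 3′ on the + strand of GRCh37 with every RCGTG, on either strand, in capitals. The first 4 are A549 peaks called in both lines, and carried from 1 to 6 copies of the core.
SLC16A3, chr17:80188927-80189067: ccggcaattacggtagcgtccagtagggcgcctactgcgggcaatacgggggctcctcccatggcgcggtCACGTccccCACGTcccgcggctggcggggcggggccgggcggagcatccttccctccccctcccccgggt
ALDOA, chr16:30076801-30076941: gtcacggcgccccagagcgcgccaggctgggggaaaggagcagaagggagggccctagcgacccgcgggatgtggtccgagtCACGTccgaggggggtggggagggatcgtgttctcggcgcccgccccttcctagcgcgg
GPI, chr19:34850190-34850330: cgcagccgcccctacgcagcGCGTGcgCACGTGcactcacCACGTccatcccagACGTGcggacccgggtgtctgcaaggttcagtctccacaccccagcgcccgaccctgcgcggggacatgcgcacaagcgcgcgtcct
BNIP3, chr10:133795488-133795628: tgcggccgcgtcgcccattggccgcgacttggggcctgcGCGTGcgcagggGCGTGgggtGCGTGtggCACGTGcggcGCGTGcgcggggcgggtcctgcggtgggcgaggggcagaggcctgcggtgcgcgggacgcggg
The next are strong peaks of 1 line only, with for NDUFA4L2 the 30 bases of a UTR peak that hold the most copies of the core.
NDUFA4L2, H460 only, chr12:57628998-57629027: gttggctCACGTaggcCACGCtcaaCACGT
ADSS1 intron, H460 only, chr14:105202692-105202838: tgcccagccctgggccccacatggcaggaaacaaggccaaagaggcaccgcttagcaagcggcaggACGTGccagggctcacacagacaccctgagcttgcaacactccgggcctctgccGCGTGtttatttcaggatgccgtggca
CD70 intron, H460 only, chr19:6601738-6601884: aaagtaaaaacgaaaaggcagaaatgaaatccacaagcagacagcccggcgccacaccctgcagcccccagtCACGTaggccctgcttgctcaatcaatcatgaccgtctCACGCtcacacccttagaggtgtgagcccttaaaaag
region near SDC1, A549 only, chr2:20379461-20379601: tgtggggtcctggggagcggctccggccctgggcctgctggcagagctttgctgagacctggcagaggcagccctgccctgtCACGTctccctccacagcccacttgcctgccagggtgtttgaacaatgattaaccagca

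The first comparison asked how many sites the 2 lung lines had in common. Most sites were called in 1 line, and most of the strongest sites were called in both. A total of 738 peaks were shared, each overlapping 1 peak of the other list, which is 13.6% of the A549 list (Wilson 95% interval 12.8 to 14.6) and 19% of the H460 list (17.8 to 20.3). Among the 100 strongest peaks, 86% of those of A549 (77.9 to 91.5) were called in H460 and 89% of those of H460 (81.4 to 93.7) were called in A549. Among the strongest 500 the shares were 67.8% (63.6 to 71.7) and 60.4% (56.0 to 64.6), and in the weakest of 10 equal parts of each list, cut by rank, they were 1.85% and 3.35%. The shares of the 2 lists were close in the strongest of these parts, at 66.3% and 67.4%, and parted from the third part on, where 15.2% of A549 peaks (12.4 to 18.4) and 27.3% of H460 peaks (23.1 to 32.0) were shared. Since the A549 list had more weak peaks, the same stretch of ranks reaches lower normalized tag counts there than in the H460 list. In the third part the counts ran from 5.80 to 8.59 in A549 and from 10.5 to 15.0 in H460.

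**Figure D1:**
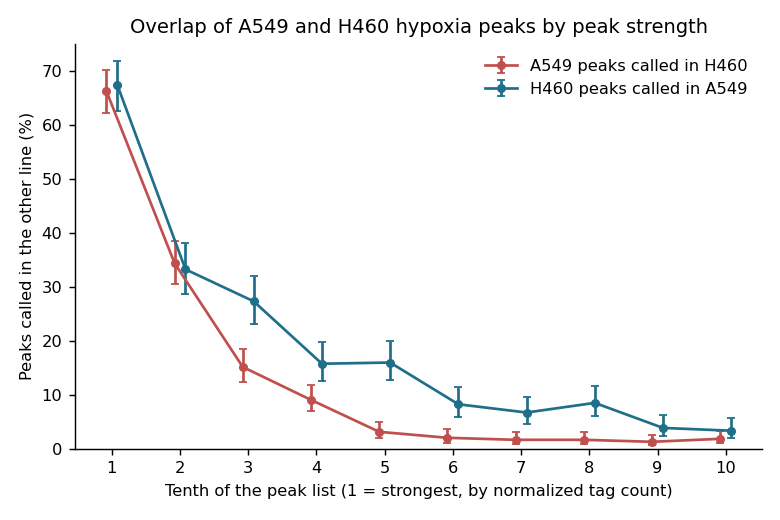
Share of peaks called in the other line (%, y axis) in 10 equal parts of the list by rank, from the strongest (1) to the weakest (10) on the x axis, for A549 and H460, with Wilson 95% intervals as bars. The share falls from 66.3% to 1.85% in A549 and from 67.4% to 3.35% in H460, with the H460 points above those of A549 from the third part on.

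The matching rule itself keeps the centres of shared peaks within about a peak width of each other. The centres of 668 of the 738 pairs lay within 50 bp of each other, with a median offset of 14 bp. Of the 540 peaks in the strongest part of the A549 list, 227 (42.0%) were in the strongest part of the H460 list, 131 (24.3%) lay lower there and 182 (33.7%) were not called in H460. Of the 387 peaks in the strongest part of the H460 list, 227 (58.7%) were in the strongest part of the A549 list, 34 (8.79%) lay lower and 126 (32.6%) were not called.

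The rank order of the shared peaks was then compared. Of the 5 sites with the best sum of ranks, 4 lay in or beside genes of glycolysis, lactate export or pyruvate use. The peak with the best sum of ranks lay in a noncoding exon of SLC16A3, the lactate exporter, 13187 bp from its transcription start site (TSS). It had 208.5 tags per 10 M tags in A549, rank 1, and 118.7 in H460, rank 3. A peak in the UTR of RRP12, a ribosome maturation gene, also lay 155 bp from the TSS of PGAM1, the glycolytic phosphoglycerate mutase, with 126.7 tags in A549 and 97.7 in H460 at ranks 6 and 9. The peak in an intron of ALDOA, the glycolytic aldolase, had 91.3 tags in A549 and 99.1 in H460 at ranks 9 and 7. At NARF, a prelamin-binding factor, a UTR peak had 156.8 tags in A549 and 87.3 in H460, and in the UTR of PDK1, the kinase that shuts off pyruvate dehydrogenase, the counts were 83.5 and 110.4. All 5 were also called in both colon lines, HCT116 and RKO, in hypoxia.

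Over all 738 shared peaks the within-list ranks had a Spearman rho of 0.757, given as a description across peaks of 2 libraries. It was 0.811 for the 421 shared peaks with a centre within 2500 bp of a TSS and 0.684 for the 317 farther away. It was 0.815 for the 232 peaks that were also called in both colon lines and 0.619 for the 280 called in neither, which were also weaker, with median counts of 8.80 against 23 tags in A549 and 10.1 against 26.9 in H460. Among the 247 shared peaks in the strongest 500 of both lists rho was 0.587. Ranked by fold over input instead, rho over all shared peaks was 0.209. Of the shared peaks, 11.5% in the A549 list and 24.0% in the H460 list had no input tag. Over the full lists these shares were 27.8% and 45.6%. The median ratio of H460 to A549 was 1.14-fold (log2 0.19), and the median distance of a peak from that ratio was 1.41-fold.

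**Figure D2:**
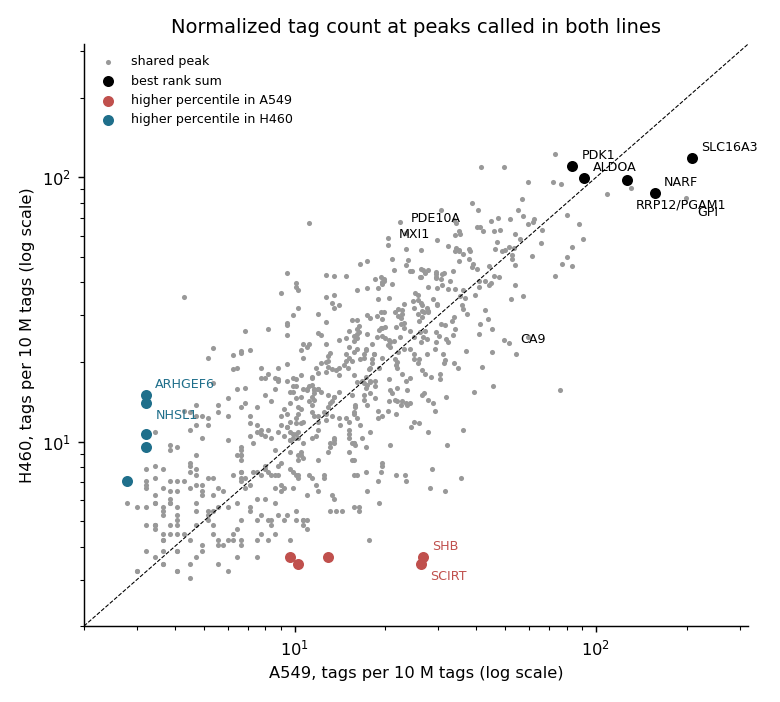
Normalized tag counts of the 738 shared peaks in A549 (x axis) and H460 (y axis), both in tags per 10 M tags on log scales, with equality as a dashed line. Black points are the 5 peaks with the best rank sum, and red and blue points are the 5 with the largest percentile difference in each direction; SLC16A3 sits at the top right (208.5 and 118.7) and the SHB and SCIRT peaks near 26 tags in A549 and under 4 in H460.

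Within the shared set some sites stood far apart in rank. A total of 118 shared peaks (16% of them) lay more than 25 percentile points higher in the A549 list, and 16 (2.17%) more than 25 points higher in the H460 list. These counts follow in part from the lists themselves, because the longer weak end of the A549 list puts shared peaks at a median percentile of 89.6 there and 82.0 in H460. By tag ratio the 2 directions were nearly even. The counting interval lay wholly on the A549 side of the median ratio at 193 shared peaks and wholly on the H460 side at 174. The normalized count was higher in H460 at 442 of the 738. The extremes in A549 were intronic and intergenic. A peak in an intron of the lncRNA gene SCIRT had 26.2 tags in A549 (122 unscaled tags) and 3.44 in H460 (17 tags), at percentiles 95.8 and 6.87. A separate shared peak 1175 bp from the TSS of SCIRT was strong in both lines, with 83.1 tags in A549 and 54.4 in H460. A peak in an intron of SHB, an adaptor of tyrosine kinase signalling, had 26.6 tags in A549 and 3.64 in H460, a ratio of 7.31. The other 3 lay 520 bp from the TSS of SOWAHD (10.3 and 3.44 tags), 67297 bp from that of SH3GL3 (12.9 and 3.64) and 115499 bp from that of DIO2-AS1 (9.66 and 3.64). SH3GL3 encodes an endophilin of membrane trafficking.

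The extremes in H460 were likewise intronic or intergenic. In either direction the extremes were barely called in the other line, which the choice by percentile difference favours. The peak in an intron of ARHGEF6, an exchange factor for RAC, had 3.22 tags in A549 (15 unscaled tags) and 15.0 in H460 (74 tags), a ratio of 4.66. A peak in an intron of NHSL1 had 3.22 tags in A549 and 14 in H460, one in an intron of the tyrosine kinase gene ABL1 had 3.22 and 10.7, and one in the lncRNA gene LINC02006 had 2.79 and 7.08. The fifth, 264 bp from the TSS of a lncRNA gene without a symbol and 132182 bp from that of MN1, had 3.22 tags in A549 and 9.50 in H460. None of these 5 was called in HCT116 or RKO, and 2 of the 5 extremes in A549, at SCIRT and near SH3GL3, were called in HCT116. Of all shared peaks 52.2% were called in HCT116 and 41.3% in RKO, and 5 sites are too few to compare with these shares.

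Sites that were strong in both lines were looked at apart, a choice that itself limits how far they can differ in rank. Among shared peaks above the 90th percentile of both lists, the largest ratio toward A549 was 2.40-fold (95% counting interval 1.93 to 2.99) at LINC02130, followed by 2.37-fold (2.11 to 2.67) at GPI, the glycolytic glucose-6-phosphate isomerase, with 199.1 tags in A549 and 83.9 in H460. At CA9, the membrane carbonic anhydrase that acidifies the outside of hypoxic cells, the counts were 51.5 in A549 and 23.7 in H460. The largest ratios toward H460 were 3.04-fold (2.43 to 3.82) near PDE10A, a phosphodiesterase gene, and 2.88-fold (2.28 to 3.68) in an intron of MXI1, a MYC antagonist, with 20.4 tags in A549 and 58.8 in H460. Near SCD, the stearoyl-CoA desaturase, the counts were 20.4 in A549 and 55.6 in H460, and in an intron of RBPJ, the DNA-binding factor of the Notch pathway, 23.4 and 61.5. These ratios compare 2 merged libraries scaled to their totals, and differences in immunoprecipitation efficiency between the lines were not removed.

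The loci of the strongest peaks called in 1 line were examined next. Few line-only peaks were strong, and more of them were strong in H460. Of 4670 peaks called in A549 and not in H460, 193 (4.13%) reached the median count of the shared peaks in that list, 14.7 tags. Of 3139 peaks called in H460 and not in A549, 335 (10.7%) reached the H460 median of 15.8. The strongest 100 peaks of a list held 14 line-only peaks in A549 and 11 in H460.

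In A549 the strongest line-only peaks lay mostly away from promoters. The first and second, with 134.4 and 97.3 tags, lay 498 bp apart on chromosome 17 in the 3′ neighbourhood of VMP1, a gene of autophagosome formation, and 2403 bp and 2901 bp from the microRNA gene MIR21. Their nearest protein-coding or lncRNA TSS was that of TUBD1, 49205 bp and 48707 bp away. Their folds over the local region were 7.49 and 5.33, against a median of 20.1 for the line-only peaks in the A549 strongest 500, H460 had a peak of its own 436 bp and 934 bp away, and both were also called in A549 in normoxia. So the locus was called in both lines at positions that did not overlap. The third peak, with 90.8 tags in A549, lay 217 bp from the TSS of the antisense RNA gene IGFL2-AS1, and the fourth, with 66.6, in an intron of SLCO1B3, an organic anion transporter. Both were called in HCT116 too, and the nearest H460 peaks were 186386 bp and 854814 bp away.

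The fifth was PLOD2, the lysyl hydroxylase of collagen, with 64.2 tags in A549 in a UTR 2353 bp from the TSS, 3 copies of RCGTG in the 200 bp window at its centre, and no H460 peak within 604529 bp. The sixth lay in a gene-poor region of chromosome 3 (62.3 tags), 317271 bp from the nearest TSS. The seventh lay in a coding exon of MGAT5B, a glycosyltransferase gene (50.2), the eighth in a lncRNA gene without a symbol, 598 bp from its TSS and 30453 bp from the TSS of the nucleoside transporter SLC28A1 (46.6), the ninth 45663 bp from the TSS of SDC1, a heparan sulfate proteoglycan (46.0), and the tenth 180947 bp from the TSS of PIK3R1, the regulatory subunit of PI3-kinase (43.4). The MGAT5B peak had 12 input tags and a fold of 17.4 over input, close to the threshold of 13. Of these 10, 6 were also called in A549 in normoxia, namely both VMP1 positions, IGFL2-AS1, SLCO1B3, the chromosome 3 site and the PIK3R1 site.

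In H460 the strongest peak of the whole list was called in that line only. It lay in the UTR of NDUFA4L2, a mitochondrial protein that lowers respiration in hypoxia, 5517 bp from its TSS, with 179.3 tags (887 unscaled tags), 5 copies of RCGTG in the central window and 6 input tags. A second H460 peak of 10.9 tags lay 126 bp from the same TSS, and the nearest A549 peak to the strongest one was 107829 bp away. Neither colon line had a peak there. The second was in an intron of ADSS1, an adenylosuccinate synthase, with 98.5 tags and an A549 peak 3743 bp away. The third, with 79.3 tags, was in an intron of CYP1B1, a cytochrome P450, and the seventh, with 52.6, in an intron of STEAP1B, 22526 bp from the TSS of the cytokine gene IL6. The tenth was in an intron of CD70, a ligand of the TNF family (47.9). CD70 also had an A549-only peak, of 34.4 tags, 27188 bp from its TSS and 24885 bp from the H460 one.

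The fourth H460-only peak, in the UTR of WDR74, a ribosome maturation gene, had 63.3 tags but also 12 input tags and a fold of 15.5 over input, close to the threshold of 14, and lay over the small nuclear RNA gene RNU2-2P. The fifth and the sixth lay 21080 bp from the TSS of PRELID3B, a mitochondrial lipid carrier (55.2 tags), and 32844 bp from that of DNAJB12, a chaperone of the endoplasmic reticulum (52.8), where A549 had a peak 2587 bp away. The eighth, with 48.3 tags and 6 copies of RCGTG, lay 15 bp from the TSS of NGLY1, which removes glycans from misfolded proteins, and in an intron of OXSM, a mitochondrial fatty acid synthase. The ninth was in an intron of CHL1, a neural adhesion molecule (48.1). Of these 10, 2 were called in HCT116 and 2 in RKO in hypoxia, with the NGLY1 site in both, and 2 were called in H460 in normoxia, at CYP1B1 and near PRELID3B.

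**Figure D3:**
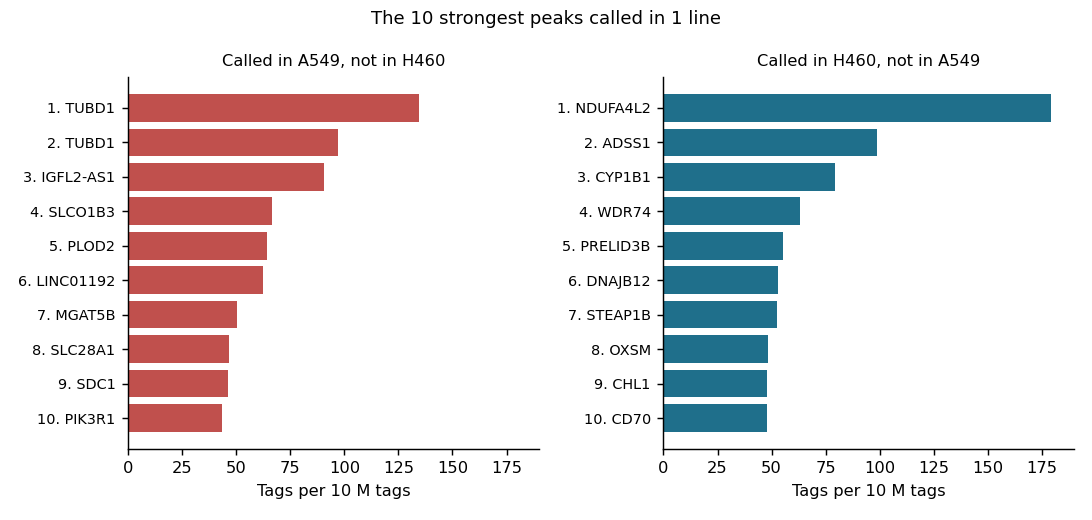
Normalized tag counts (x axis, tags per 10 M tags) of the 10 strongest peaks called in A549 and not in H460 (left) and in H460 and not in A549 (right). Bars carry the gene over the peak or, where none with a symbol lies there, the nearest TSS with a symbol; the A549 bars run from 134.4 to 43.4 and the H460 bars from 179.3 to 47.9.

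The DNA under the peaks was compared between shared and line-only sites. RCGTG was present in the central 200 bp of 93.5% of shared peaks (91.5 to 95.1), 72.9% of H460-only peaks (71.3 to 74.4) and 45.9% of A549-only peaks (44.4 to 47.3). Windows of the same length 2000 bp to either side held it at 25.2%, 24.0% and 21.3%. The gap between the lines was narrower among strong peaks. Within the strongest 500 it was present in 94.9% of H460-only peaks (91.0 to 97.2) and 86.3% of A549-only peaks (80.2 to 90.8), beside 97.0% and 96.5% of the shared peaks of the same lists. At 2 or more copies the shares were 53.1% of shared, 35.4% of H460-only and 18.2% of A549-only peaks. The form TACGTG, a run that contains the core, was held by 38.1% of shared peaks, 17.7% of H460-only and 12% of A549-only peaks, with flanks at no more than 2.37%. Over 35116 RefSeq promoters, in a window of the same length read on GRCh38.p14, RCGTG was present in 38.1%.

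Line-only peaks of A549 also lay farther from a TSS, though not more often outside genes. The intergenic share was 31.3% of shared, 31.0% of H460-only and 32.3% of A549-only peaks. The share within 2500 bp of a TSS was 57.0% for shared peaks (53.4 to 60.6), 47.4% for H460-only peaks (45.7 to 49.1) and 24.5% for A549-only peaks (23.3 to 25.8). In the strongest 500 it was 54.0% of H460-only peaks (47.1 to 60.8) and 31.7% of A549-only peaks (25.0 to 39.2). The GC box GGGCGG followed the same order, at 40.8% of shared, 33.0% of H460-only and 14.9% of A549-only peaks, beside 40.1% of RefSeq promoters, and the median GC content was 62%, 57% and 49%. Within 2500 bp of a TSS the GC box was in 56.1% of shared, 54.2% of H460-only and 40.5% of A549-only peaks.

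The AP-1 element TGANTCA, the site of FOS and JUN dimers, ran the other way. Searched on both strands, it was present in 26.7% of A549-only peaks of the strongest 500 (20.5 to 34.0) and 8.59% of H460-only peaks (5.43 to 13.3), with flanks at 6.21% and 6.31%, and in 5.38% of RefSeq promoters. Since it was rare at promoters, the peaks were also split by distance from a TSS, an alternative chosen after the values were seen. Farther than 2500 bp it was present in 39 of 110 A549-only peaks (35.5%, 27.1 to 44.7) and 14 of 91 H460-only peaks (15.4%, 9.39 to 24.2) of the strongest 500, and within 2500 bp in 4 of 51 and 3 of 107. Distal shared peaks of the same strength held it at 27.2% in the A549 list and 22.1% in the H460 list. Over all line-only peaks, weak ones included, the shares were 16.6% in A549 and 12.7% in H460, and over those farther than 2500 bp from a TSS they were 19.2% (18.0 to 20.6) and 19.7% (17.9 to 21.7). The lines thus differed in AP-1 letters among the strongest distal line-only peaks, and the intervals overlapped when all distal line-only peaks were counted. The ETS element CCGGAA was present in 13.4% of shared, 11.4% of H460-only and 5.03% of A549-only peaks, and in 12.9% of RefSeq promoters. Within 2500 bp of a TSS these shares were 17.3% of shared, 17.4% of H460-only and 13.4% of A549-only peaks. The antioxidant response element core TGACNNNGC, named for NRF2, was present in 12.2% of shared peaks, 10.8% of H460-only and 9.70% of A549-only peaks, with flanks at 5.96%, 6.50% and 6.96%, and in 9.23% of promoters. AP-1 and antioxidant elements can overlap, and matches were counted apart. For the forkhead element TGTTTAC, the HNF1 element GTTAAT and the C/EBP element TTGCNNAA, named for factors of epithelial and liver-type genes, no class in the full lists exceeded its flanks by more than 1.5 times. Farther than 2500 bp from a TSS the forkhead element was in 6.06% of H460-only peaks (5.01 to 7.31), with flanks at 2.57%. In A549-only peaks it was 3.66% (3.09 to 4.33), with flanks at 2.89%. Distal shared peaks held it at 4.42% in the A549 list and 4.43% in the H460 list. A match is a run of letters and not a measured site of these factors.

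**Figure D4:**
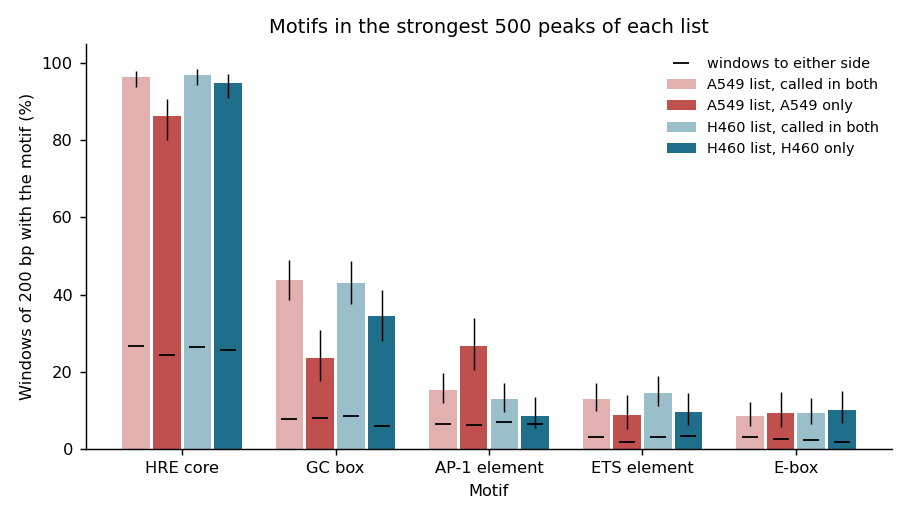
Share of 200 bp windows holding each motif (%, y axis) in the strongest 500 peaks of each list, split into peaks called in both lines and in 1 line, with Wilson 95% intervals, and the mean share of windows 2000 bp to either side as short black lines. The hypoxia response element core (HRE core) stands between 86.3% and 97.0% in every class, and the AP-1 element at 26.7% in A549-only and 8.59% in H460-only peaks.

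The 2 lung lines were also set against the colon lines of the series. Of shared peaks, 52.2% were called in HCT116 (48.6 to 55.8) and 41.3% in RKO (37.8 to 44.9), and 280 of 738 were called in neither. Of A549-only peaks, 5.22% were called in HCT116 and 4.54% in RKO, and of H460-only peaks 13.5% and 10.5%. In the strongest 500 the shares of line-only peaks called in at least 1 colon line were 49.1% in A549 (41.5 to 56.7) and 46.0% in H460 (39.2 to 52.9). A peak of the other lung line lay within 10000 bp of 8.01% of A549-only and 12.6% of H460-only peaks, and in the strongest 500 of 16.1% (11.3 to 22.6) and 14.1% (9.97 to 19.7). In their own normoxia list, 10.6% of shared and 2.10% of A549-only peaks were called in A549, and 2.30% of shared and 0.892% of H460-only peaks in H460.

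At the level of genes, 2095 of 38807 gene names (5.4%) had an A549 peak within 2500 bp of the TSS and 2649 (6.83%) an H460 peak. Both lines had one at 739 genes (1.9%), of which 603 were through an overlapping peak and 136 only through different peaks. A549 alone had one at 1356 genes (3.49%) and H460 alone at 1910 (4.92%). Among protein-coding genes the shares were 7.03% in A549, 9.17% in H460 and 2.54% in both. These percentages are the background for 11 lists, 7 of hypoxia response genes and 4 of lung, mesenchymal, neural and NRF2 genes. Of the 76 genes of the hypoxia lists 31 had a peak in both lines, 4 in A549 alone, 10 in H460 alone and 31 in neither. The window sets part of this count, since 6 of the 31 had a shared peak within 15000 bp of the TSS. These were SLC16A3, with the best rank sum of all, ADM, a vasodilator peptide (44.2 tags in A549 and 39.2 in H460 at 2889 bp and 2920 bp), the phosphofructokinase PFKP, the ephrin EFNA3, the lysyl hydroxylase PLOD1 and the integrin subunit ITGA5. Of the 52 other genes the numbers were 1, 2, 10 and 39.

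Glycolysis was the list with the most genes called in both lines, 12 of 20. GPI and PGAM1 stood first in A549, and ALDOA, PGAM1 and ENO1, the enolase, in H460, where ENO1 had 96.4 tags against 72.2 in A549. LDHA, which makes lactate, had 90.8 tags in A549 and 58.6 in H460. HK2, the inducible hexokinase, differed most among those with an overlapping peak, with 10.1 tags in A549 at rank 907.5 and 39.8 in H460 at rank 134.5. PFKL, a phosphofructokinase, had a peak in each line, but at different positions, with 5.15 and 20.0 tags. SLC2A1, the glucose transporter GLUT1, counted for H460 alone (24.5 tags, 568 bp from the TSS), but both lines shared a peak outside that window, of 24.5 tags in A549 and 44.3 in H460, 3921 bp and 3912 bp upstream. PFKFB4, which sets fructose 2,6-bisphosphate, counted for A549 alone through a weak peak of 3.65 tags, while a shared peak 4738 bp into the gene had 49.4 tags in A549 and 109.4 in H460. So these calls in 1 line did not mean that the other line lacked a site at the gene.

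Of the genes that hold back mitochondria, 5 of 8 were called in both lines and NDUFA4L2 in H460 alone. BNIP3 and BNIP3L, receptors of mitophagy, had 59.3 and 108.7 tags in A549 and 96.0 and 86.7 in H460. FAM162A, a mitochondrial protein induced by hypoxia, had 53.7 and 61.1. Among oxygen sensors and demethylases 3 of 12 were called in both lines. They were EGLN1, the prolyl hydroxylase that marks HIF1A for degradation (46.0 in A549 and 62.7 in H460), and the histone demethylases KDM3A (61.2 and 50.5) and KDM4B (40.2 and 44.9). HIF1AN, the asparagine hydroxylase that blocks HIF1A activation, was called in H460 alone (20.8), and the nearest A549 peak to its TSS was 75847 bp away.

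The lists of secreted factors and matrix held a strong locus called in A549 alone. PLOD2 had 64.2 tags in A549 and no H460 peak within 606882 bp of its TSS, while P4HA1, the collagen prolyl hydroxylase that acts in the same compartment, had 65.5 in A549 and 56.4 in H460. LOX, which crosslinks collagen, was called in A549 alone with 3.22 tags. STC2 and STC1, secreted stanniocalcins, were called in both lines (48.7 and 52.8, 21.5 and 30.9), and VEGFA, the angiogenic growth factor, only weakly in both (4.94 and 6.47). EFNA1, an ephrin ligand, was called in H460 alone (19.6). ANGPTL4, a lipase inhibitor, had 9.23 tags in A549 and 15.8 in H460 at positions that did not overlap. The carbonic anhydrase CA12 likewise had separate peaks of 10.3 and 3.44.

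Of the 11 repressors and signalling genes, 4 were called in both lines and 4 in H460 alone. One of the latter, MXI1, counted through a peak of 10.1 tags, while the shared peak described above lay 2503 bp and 2507 bp from its TSS, just past the window. BHLHE40, a circadian repressor, had 26.2 tags in A549 and 42.1 in H460, DDIT4, an inhibitor of mTORC1, 33.3 and 28.5, and ANKRD37 47.9 and 63.1. CITED2, which competes with HIF1A for its coactivator, and ERO1A, the oxidase of protein folding, had 25.3 tags each in H460 and no A549 peak within 905445 bp and 167027 bp of their TSS.

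**Figure D5:**
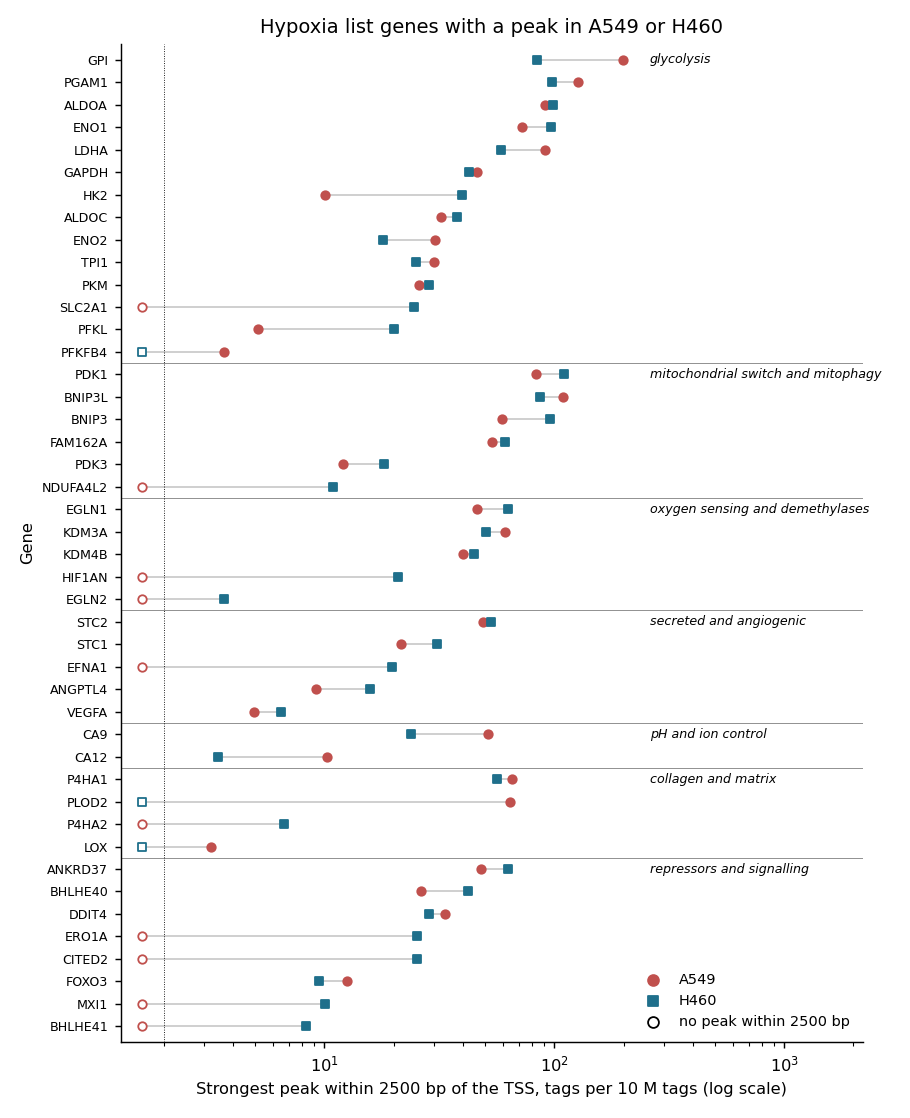
Normalized tag count (x axis, tags per 10 M tags, log scale) of the strongest peak within 2500 bp of the TSS in A549 (circles) and H460 (squares) for hypoxia list genes with a peak in at least 1 line (y axis; 1 such gene is not drawn), grouped by list. Open symbols left of the dotted line mark a line with no peak in the window; PLOD2 (64.2 in A549) and CITED2 and ERO1A (25.3 in H460) stand out among them, and GPI has the highest count, 199.1 in A549.

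Of the lists outside the hypoxia response, the mesenchymal one had the largest share of genes with a peak, 6 of 12, and most of these peaks were weak. Of 16 lung epithelial genes none was called in both lines. MUC1, a membrane mucin (13.5), and SFTPA1, a surfactant protein (3.65), were called in A549 alone, and FOXA1 (8.69) and NKX2-1 (3.84), transcription factors of the airway, in H460 alone. Peak lists hold no expression, so the labelled cell types could not be checked against markers. Of 12 mesenchymal genes AXL, a receptor tyrosine kinase, was called in both lines (13.7 in A549 and 5.46 in H460) and 5 in H460 alone. The latter were VIM, an intermediate filament (9.71), FN1, a matrix glycoprotein (10.7), and the repressors ZEB2 (5.26), SNAI1 (5.26) and SNAI2 (5.86). Of all genes, lncRNA genes included, 4.92% had a peak in H460 alone. Among protein-coding genes 9.17% had an H460 peak and 2.54% a peak in both lines. Of 10 neural and endocrine genes ENO2, which is also in the glycolysis list, was called in both lines (30.3 and 18.0), and the adhesion molecule NCAM1 in H460 alone (5.05). Of 15 NRF2 targets none was called in both lines and 2 in H460 alone, among them PGD (7.68), an enzyme of the pentose phosphate pathway, which is near the background of 2.54% and 9.17% of protein-coding genes with a peak in both lines and in H460. Most of these counts lay near or under the median of their list and rest on few tags.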

How the data were processed

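The authors aligned HIF1A ChIP-seq and input reads to GRCh37 with Bowtie2 2.2.9, filtered alignments by mapping quality, marked duplicates, merged the 2 replicates per group, and HOMER 4.3 was used for peak calling. The deposited signal is the normalized tag count, in tags per 10 M tags. The deposited fold ratio over input and over the local region, and the deposited tag counts behind them, served to describe and filter peaks. Thresholds over input were set by the authors line by line, so the lists were not called alike, and 85.0% and 81.3% of putative peaks were removed by the input filter. Input depths inferred from the files were 41.6 M tags in A549 and 29.3 M in H460. The deposited p-value columns were not used, and 0 columns belonged to samples outside the series.

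Peaks were matched, ranked and annotated with Python 3.11.15, pandas 2.3.3 and scipy 1.17.1. Each of 38865 GENCODE genes (release 44 on GRCh37; protein-coding or lncRNA) gave 1 TSS, its 5′ end. Shares carry Wilson 95% intervals and tag ratios exact binomial ones. With 1 merged list a line, leaving out a replicate was not possible and no test was made. Named peaks were the 5 shared peaks with the best rank sum, the 5 with the largest percentile difference in each direction, the 10 strongest peaks of each line only and the list genes; other loci were chosen after their values were seen. Members and gene lists were chosen with earlier results of these data known. The matching, rank correlation, motif and TSS distance steps were tested on simulated data. Alternatives changed the overlap, thresholds, ranking, motif window and TSS distance. Some items are not reported here.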

Additional observations from a re-analysis of the deposited data

How the results depend on the processing

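Of 97 values recomputed over 12 results and 13 alternatives, 64 stayed within the counting interval of the reported value and 33 moved. The number of list genes with a peak in both lines, 32 of 128, counted as not moved although it depended on the TSS rule. It was 44 from every transcript start, 39 at 10000 bp, 26 at 1000 bp and 23 without peaks that had no input tag. The order of shared over H460-only over A549-only peaks in RCGTG and TSS shares held in each alternative. With peak centres within 500 bp, 20.3% of H460 peaks were shared. A fold over input of at least 14 gave 17.8% of H460 peaks shared and RCGTG in 47.4% of A549-only peaks. A local fold of at least 6 gave shares of 21.2% of A549 and 23.3% of H460 peaks, RCGTG in 54.4% of A549-only and 81.9% of H460-only peaks and 51.1% of H460-only peaks near a TSS. With the same number of peaks in both lists, 18.4% of A549 peaks were shared, and A549-only peaks held RCGTG at 54.5% and lay near a TSS at 29.2%. Without peaks that had no input tag, 24.1% of H460 peaks, 58.6% of the strongest 500 of A549 and 55.0% of those of H460 were shared. RCGTG was then at 52.0% of A549-only and 82.1% of H460-only peaks, and 27.6% and 52.5% lay near a TSS. Ranked by fold over input, rho was 0.209 and the strongest 500 were shared at 42.8% in A549 and 43.0% in H460; the cause was not tested. A 100 bp window held RCGTG at 87.0% of shared, 34.6% of A549-only and 62.1% of H460-only peaks. TSS shares of shared, A549-only and H460-only peaks were 67.6%, 34.9% and 58.1% from every transcript start, 47.2%, 18.3% and 40.9% at 1000 bp, and 69.0%, 41.6% and 60.4% at 10000 bp. Leaving out peaks within 1000 bp of another of their list, chosen after seeing the data, moved no value past its interval.

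No paired analysis was possible because the replicates were merged before peaks were called, and for the same reason leaving out a replicate was not run. The median peak rests on 18 tags in A549 and 32 in H460. A site called in 1 line is only one that did not pass the threshold of the other, since the tags under uncalled sites are not in the lists. Input depth and sonication cannot be told apart from the line, and their part in the gap between the lines was not tested. Raising the A549 threshold from 13 to 14, that of H460, left 4756 A549 peaks and all 3877 H460 peaks. The RCGTG shares of line-only peaks were then 47.4% and 73.2% and their TSS shares 25.3% and 47.4% in A549 and H460. With lists of equal length the RCGTG shares were 54.5% and 72.9% and the TSS shares 29.2% and 47.5%. Under the stricter local fold the RCGTG shares were 54.4% and 81.9%.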

Other observations

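The chromosomes took different shares of the 2 lists. Chromosome 8 held 5.70% of A549 peaks (Wilson 95% interval 5.11 to 6.34) and 4.02% of H460 peaks (3.45 to 4.69), and chromosome 9 held 5.21% and 3.79%. Chromosome 6 held 4.72% of A549 peaks (4.18 to 5.31) and 6.16% of H460 peaks (5.45 to 6.97), and chromosome 2 held 6.51% and 8.25%. Copy number of the lines was not analysed here, and its part in these shares was not tested.

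The intervals of 1 Mb with many peaks called in 1 line were also listed. They were picked as the fullest of all intervals and have no background count beside them. Whether such peaks cluster, and the part of gene density or copy number, was not tested. The interval of 1 Mb with the most A549-only peaks was chromosome 15 from 63000001 to 64000000, with 13 such peaks around CA12 and TPM1, a tropomyosin gene, 4 H460 peaks and no shared one. On chromosome 10 from 14000001 to 15000000, over FRMD4A and FAM107B, there were 9 A549-only peaks and 0 in H460. In H460, chromosome 2 from 228000001 to 229000000 held 8 line-only peaks with a median of 13.45 tags, near CCL20, a chemokine gene, and COL4A4, a basement membrane collagen gene, and 1 A549 peak. Their median input was 2 tags, against 1 at the CA12 interval.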
